A study of Mus musculus with 6 samples.

Results

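Base excision, nucleotide excision, mismatch and alternative end-joining repair were examined in haematopoietic stem cells (HSC), the bone marrow cells that sustain blood formation, of mice with a mutant ligase of classical end joining. The set was drawn up by gene name, and its members are the array probe sets whose platform annotation names exactly 1 of 36 listed genes. There were 73 such probe sets among 45101 on the array, and they covered 34 of the 36 genes, out of 18193 genes measured in all. Neil2, a glycosylase gene, was not matched by a probe set of its own. Tdg, which encodes thymine DNA glycosylase, was named on 3 probe sets together with 2 pseudogenes, so neither gene has a value here.

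The cells were CD150+ CD48- KSL cells of bone marrow from Lig4mut mice and from Lig4+/+ (wild-type, WT) littermates of the same Lig4mut/+ intercross, at 6 to 8 weeks of age. There were 3 biological replicates of each genotype and 1 array for each. The labels give neither the nature of the Lig4 mutation nor whether a replicate was 1 mouse or a pool. Lig4 was low on every Lig4mut array, at 4.97, 3.16 and 3.10 (log2) on replicates 1, 2 and 3, whereas the WT arrays stood at 7.53, 6.66 and 7.63. The 10 measured HSC markers, among them Kit, Procr and Mecom, had mean log2 levels of 10.38 to 10.55 on the WT arrays and of 9.16 to 10.23 on the Lig4mut arrays.

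In base excision repair a glycosylase cuts out a damaged base, Apex1 nicks the strand, a polymerase fills the gap and a ligase seals it, while nucleotide excision repair removes a whole stretch around a bulky lesion and mismatch repair corrects copying errors behind the replication fork. Alternative end joining rejoins broken ends without ligase IV, and is described as relying on Parp1, polymerase theta (Polq) and the ligases Lig1 and Lig3, with Xrcc1 as a partner of Lig3.

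No member differed between the genotypes past the threshold of an adjusted p of 0.05. The test was limma's moderated test over all 18193 genes, with Benjamini-Hochberg adjustment and each gene taken at its probe set with the highest mean, and adjusted p-values of the 34 genes ran from 0.158 to 0.996. Over all genes the same test called 2 genes, or 0.011%. At an unadjusted p under 0.05 there were 4 members, Ercc2 on the higher side and Pms1, Lig3 and Ercc6 on the lower side in Lig4mut, a share of 11.8% where the share of all genes was 19.7%. By direction, all genes gave 15.6% on the higher side and 4.18% on the lower. For 5 members, the same 4 and Mutyh, the arrays of the genotypes did not overlap, 14.7% of members against 26.7% of all genes. Of these 5, Ercc2 and Mutyh were higher in Lig4mut, where 21.1% of all genes were higher without overlap, and 3 were lower, against 5.65% of all genes. Most members were bright: 28 of the 34 had a WT mean above that of the median gene, and of all genes above it 13.0% lay at an unadjusted p under 0.05, 6.20% higher and 6.75% lower. The count of 4 was 2 without WT replicate 2, where the share of all genes was 12.7%, 2 without WT replicate 3 (14.5% of all genes) and 7 without Lig4mut replicate 1 (22.5% of all genes). With arrays centred on their medians 1 member was higher and 1 lower at that level (21.1% of all genes), and with cyclic loess 1 was higher and 2 were lower (13.1% of all genes).

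With 3 arrays per genotype the intervals were wide, so the lack of a call does not show that levels were alike. Lig4 itself, at -3.53 ± 0.61 and 11.5-fold lower on its 1 probe set, did not pass the threshold (limma, adjusted p = 0.13). The 95% interval of the difference had a median half-width of 1.15 log2 units over the 34 members and lay within 1 log2 unit of 0, a 2-fold change, for 4 of them, Parp1, Apex1, Nthl1 and Ddb1. For all genes that share was 29.8%. Since these are sorted populations measured in bulk, fewer cells of a type and less RNA per cell cannot be told apart.

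**Figure D1:**
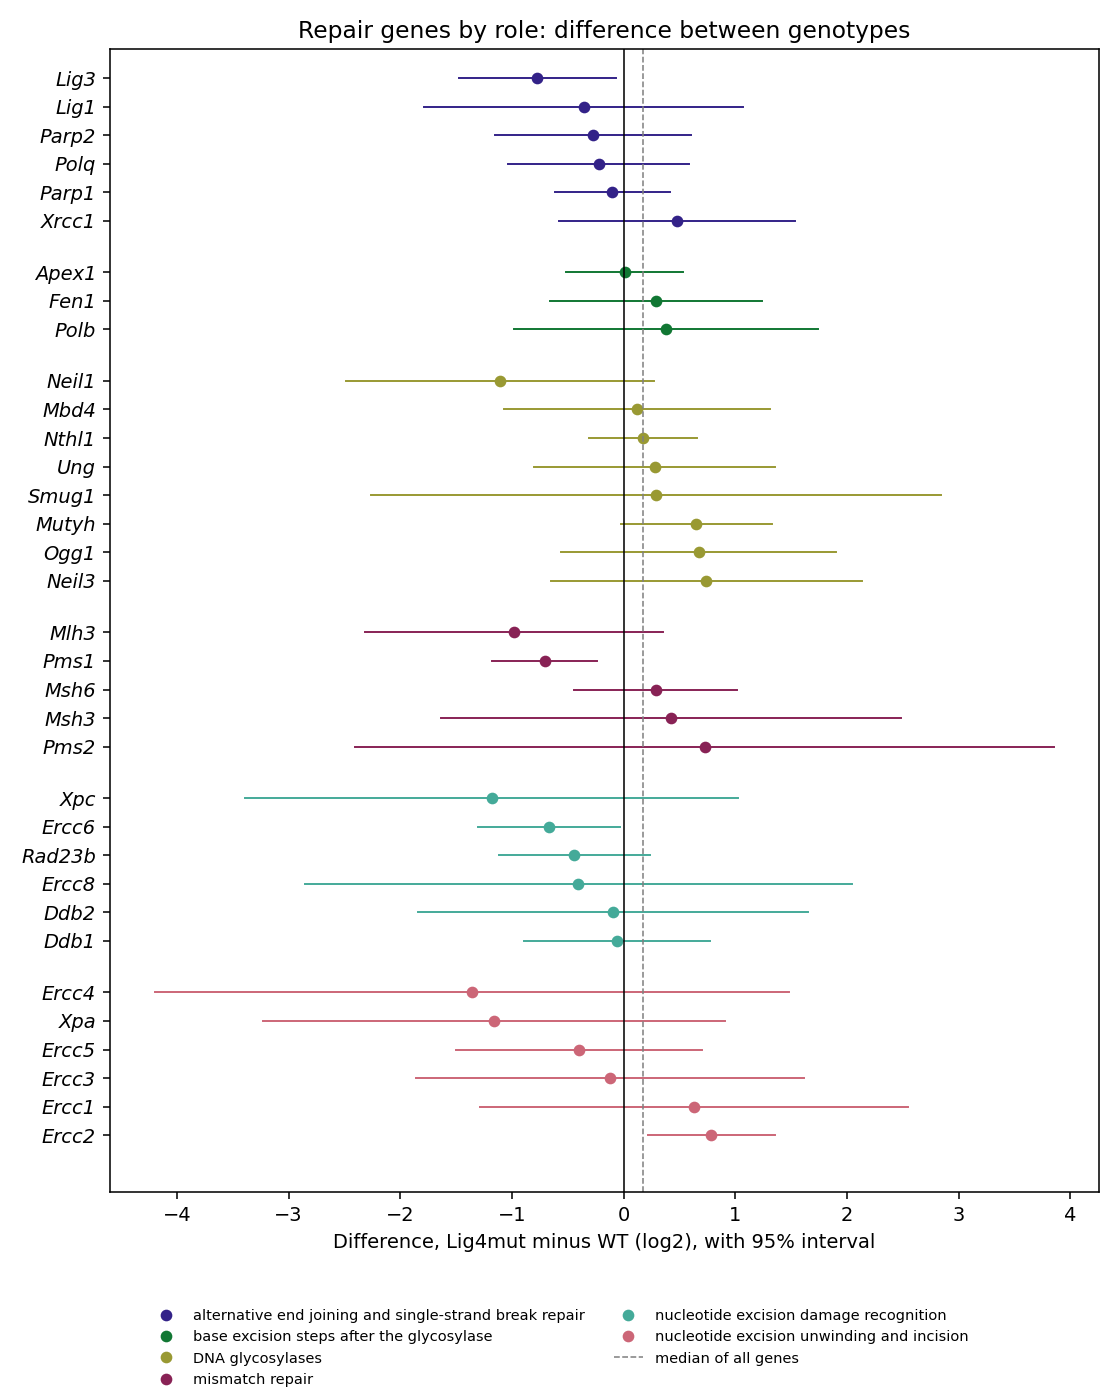
Difference between genotypes (Lig4mut minus WT, log2, x axis) of the 34 measured repair genes, grouped by role, with bars for the 95% interval from limma and 3 arrays per genotype; the dashed line is the median of all genes, 0.18. Only the bars of Lig3, Pms1, Ercc6 and Ercc2 do not cross 0, and none of these 4 genes passed the adjusted threshold.

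The sequence just before the start of 3 of these 4 genes, Ercc2, Pms1 and Lig3, is shown for orientation. That of Ercc6 is left out, because its window in the promoter table lies mostly inside the gene record. The 250 bases come from the RefSeq promoter table for GRCm38.p6, 5′ to 3′ on the strand of the gene. Capitals mark matches on either strand to a GC box (GGGCGG) or a CCAAT box (CCAAT), none of which overlap here. Both motifs and a pair of E2F-type motifs (TTTCCCGC or TTTGGCGC), which show no match in these 3, were searched by letters alone. Ercc2 lies at chr7:19382017-19395694, Pms1 at chr1:53189187-53297031 on the minus strand and Lig3 at chr11:82781109-82804274. The windows are chr7:19381767-19382016, chr1:53297029-53297278 and chr11:82780859-82781108, and that of Pms1 reaches 3 bases into the gene record.
Ercc2: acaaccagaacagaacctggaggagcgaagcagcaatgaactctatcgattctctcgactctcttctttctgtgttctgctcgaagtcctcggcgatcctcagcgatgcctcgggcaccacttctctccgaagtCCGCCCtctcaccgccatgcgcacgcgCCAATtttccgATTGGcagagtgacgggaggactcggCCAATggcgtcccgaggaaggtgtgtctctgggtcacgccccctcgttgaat
Pms1: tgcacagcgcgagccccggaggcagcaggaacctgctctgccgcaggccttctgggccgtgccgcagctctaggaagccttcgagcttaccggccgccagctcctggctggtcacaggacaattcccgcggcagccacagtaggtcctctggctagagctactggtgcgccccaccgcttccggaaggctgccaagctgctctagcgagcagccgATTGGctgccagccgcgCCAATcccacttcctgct
Lig3: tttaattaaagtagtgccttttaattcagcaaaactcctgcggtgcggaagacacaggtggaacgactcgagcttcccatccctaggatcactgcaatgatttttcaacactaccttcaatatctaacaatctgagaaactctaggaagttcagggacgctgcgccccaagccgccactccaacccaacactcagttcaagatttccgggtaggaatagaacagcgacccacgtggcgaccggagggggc
The window of Ercc2 held 3 CCAAT boxes and 1 GC box, that of Pms1 held 2 CCAAT boxes, and that of Lig3 held neither. Of 35 promoters listed for 30 of the 34 measured members, 54.3% held a CCAAT box and 51.4% a GC box, where the shares of all 32851 promoters in the table were 33.8% and 32.7%. The member promoters were also richer in G and C, with a median of 56.8% against 52.4% of all, and its part in these shares was not tested. An E2F-type match was found in 1 of the 35, or 2.86%, against 1.30% of all. A match is a run of letters and no evidence of binding.

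Of the alternative end-joining and single-strand break genes, 5 of 6 had differences below 0, where 61.5% of all genes were above 0. None passed the threshold, and their median was -0.25 where all genes had 0.18. However, 1 of the 5, Parp1, was above 0 with median centring and with cyclic loess. Parp1, the poly(ADP-ribose) polymerase that senses nicks and breaks, stood at 11.06, 10.67 and 10.64 (log2) on the WT arrays and at 10.40, 10.82 and 10.84 on those of Lig4mut. The Lig4mut arrays lay among the WT arrays except for replicate 1, which was lowest of all 6, and the difference was -0.10 ± 0.20 (SE, n = 3 per genotype), with a 95% interval of -0.62 to 0.41. Its value was 0.25 with median centring and 0.019 with cyclic loess, and also turned positive without WT replicate 1 (0.031) and without Lig4mut replicate 1 (0.038). Parp2, its closest relative, was at -0.27 ± 0.35, and at 0.011 without WT replicate 1.

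Lig1 encodes the ligase that joins Okazaki fragments and closes long-patch repair. Its levels were 10.17, 9.99 and 10.14 in WT and 10.13, 10.57 and 8.51 in Lig4mut. Replicate 3 alone lay below WT, replicate 2 lay above it, and the difference of -0.36 ± 0.56 turned to 0.26 without Lig4mut replicate 3. Lig3, the partner ligase of Xrcc1 and the ligase of mitochondria, had 9.54, 9.09 and 9.29 in WT and 9.0, 8.51 and 8.10 in Lig4mut. All 3 Lig4mut arrays lay below WT, replicate 1 by little, and the difference was -0.77 ± 0.28, 1.71-fold lower (limma, adjusted p = 0.224). Averaged over its 5 probe sets Lig3 was at -0.29.

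Xrcc1, the scaffold protein of single-strand break repair, was the member of this group with a value above 0. Its levels were 9.63, 9.20 and 8.48 in WT and 10.07, 9.0 and 9.69 in Lig4mut, which overlap, and the difference was 0.48 ± 0.42, with a 95% interval of -0.58 to 1.54. It was 0.17 without WT replicate 3, 0.24 without Lig4mut replicate 1 and 0.78 without Lig4mut replicate 2. Polq, whose product anneals short homologies at broken ends, stood at 5.15, 5.02 and 5.45 in WT and at 4.52, 4.84 and 5.60 in Lig4mut. Replicates 1 and 2 lay below the WT arrays and replicate 3 above them, and the difference of -0.22 ± 0.32 was 0.008 without Lig4mut replicate 1.

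The 3 base excision genes that act after the glycosylase had values above 0, as did 61.5% of all genes, and none passed. Of the 3, 2 exceeded the median of all genes, 0.18. Each of the 3 turned negative without WT replicate 3 (Apex1 to -0.085, Fen1 to -0.032 and Polb to -0.092). Apex1, the endonuclease that nicks at a lost base, had a difference of 0.01 ± 0.21, with 11.29 to 11.64 in WT and 11.16 to 11.74 in Lig4mut, and was also below 0 without Lig4mut replicate 2 (-0.033) or 3 (-0.11). Fen1, the nuclease that trims displaced flaps in repair and replication, was at 11.55, 11.10 and 10.37 in WT and at 11.70, 11.25 and 10.94 in Lig4mut, a difference of 0.29 ± 0.37 that was 0.088 without Lig4mut replicate 1. The mean level of 16 S phase genes was likewise lowest in WT replicate 3, at 9.12 against 9.69 and 9.54 in the other WT arrays and 9.77, 9.60 and 9.52 in Lig4mut, and its part in the Fen1 value was not tested. Polb, the gap-filling polymerase, was at 0.38 ± 0.54, and at -0.55 averaged over its 4 probe sets.

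Of 8 measured glycosylases, 7 had differences above 0, where 61.5% of all genes did, and none passed. Their median was 0.28 against 0.18 for all genes, and 5 of the 8 exceeded the median of all genes. Of the 7, 2 (Mbd4 and Smug1) were below 0 in some alternatives. Mbd4 was at -0.05 in the values as deposited, at -0.74 averaged over its probe sets, and at -0.25 and -0.12 without WT replicate 2 and Lig4mut replicate 3. Mutyh, which removes adenine paired with oxidised guanine, had 6.13, 5.55 and 6.19 in WT and 6.26, 6.91 and 6.65 in Lig4mut. All Lig4mut arrays were above WT, replicate 1 barely so, and the difference was 0.65 ± 0.27, 1.57-fold (limma, adjusted p = 0.269). For Mutyh it was 0.33 in the values as deposited, 0.44 with cyclic loess and 0.65 with median centring. All genes in the class of WT level around 5.88, near that of Mutyh (5.96), had a median difference of 0.48. Ogg1, the glycosylase for oxidised guanine itself, had 8.32, 8.38 and 8.84 in WT and 10.21, 8.73 and 8.61 in Lig4mut. Replicate 1 stood apart from the other Lig4mut arrays, and without it the difference went from 0.67 ± 0.49 to 0.16.

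Neil3, a glycosylase of dividing cells, showed the same array at the top, with 8.87, 7.74 and 6.81 in Lig4mut against 7.21, 6.75 and 7.25 in WT. Its difference of 0.74 ± 0.55 was 0.21 without Lig4mut replicate 1. Neil1, which acts on oxidised pyrimidines, was the glycosylase with lower values. It had 7.21, 5.56 and 7.16 in WT and 6.10, 5.30 and 5.22 in Lig4mut, so that WT replicate 2 lay among the Lig4mut arrays, and the difference was -1.11 ± 0.54, 2.15-fold lower (limma, adjusted p = 0.337). The uracil glycosylase genes Ung and Smug1 were at 0.28 ± 0.42 and 0.29 ± 1.01, Nthl1, for oxidised pyrimidines, at 0.18 ± 0.19, and Mbd4, for deaminated methylcytosine, at 0.12 ± 0.47. Smug1 varied widely within each genotype, from 5.71 to 8.87 in WT and from 6.87 to 8.91 in Lig4mut, and its difference was -0.68 without WT replicate 3, -0.20 without Lig4mut replicate 2 and 0.90 without WT replicate 2.

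Mismatch repair genes divided into 3 above and 2 below 0, where 61.5% of all genes were above 0, again with none past the threshold. Pms1, a MutL-type protein, had the smallest p of all members. Its levels were 5.82, 5.94 and 5.93 in WT and 5.47, 4.90 and 5.20 in Lig4mut, with no overlap and with WT arrays close together (SD 0.07). The difference was -0.71 ± 0.18, 1.63-fold lower (limma, adjusted p = 0.158), and between -0.85 and -0.56 without any 1 array. Pms1 has 1 probe set on the array. It was dim, with a WT mean of 5.90 where the median gene had 6.86, and a filter on dim genes left it out. Mlh3, another MutL-type protein, had 9.47, 8.81 and 8.83 in WT and 7.71, 9.13 and 7.33 in Lig4mut. Lig4mut replicate 2 was within the WT range and the other Lig4mut arrays below it, and the difference was -0.98 ± 0.53.

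Msh6, which recognises single mismatches, was at 0.29 ± 0.29, with 9.71 to 10.45 in WT and 10.02 to 10.75 in Lig4mut. Msh3, which recognises larger loops, and Pms2, the nuclease subunit of the main MutL complex, had the same order of Lig4mut arrays. Msh3 stood at 7.91, 6.38 and 9.53 there, against 7.35 to 7.79 in WT. Pms2 stood at 8.61, 6.82 and 11.22, against 7.03 to 8.96 in WT. Replicate 3 was the highest and replicate 2 the lowest of all 6 arrays for both genes, and without replicate 3 the differences of 0.42 ± 0.81 and 0.73 ± 1.23 became -0.37 and -0.44.

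The damage recognition genes of nucleotide excision repair had differences below 0 for 6 of 6 members, where 61.5% of all genes were above 0. Their median was -0.42 against 0.18 for all genes, and none passed the threshold. However, Ddb1 and Ddb2 were above 0 with median centring (0.28 and 0.22) and with cyclic loess (0.061 and 0.0059). Leaving out single arrays also turned 3 of the 6 positive. Ddb1 was above 0 in 4 of the 6 omissions, up to 0.11, Ddb2 was at 0.29 without WT replicate 1 and 0.46 without Lig4mut replicate 3, and Ercc8 was at 0.26 without Lig4mut replicate 2. Xpc, the sensor of helix distortion, had 8.32, 8.91 and 8.65 in WT and 6.79, 6.19 and 9.35 in Lig4mut. Replicates 1 and 2 lay well below WT and replicate 3 above it, and the difference of -1.18 ± 0.87 was -2.13 without replicate 3 and -0.55 without replicate 2. Rad23b, the partner that stabilises Xpc, had 10.57, 11.07 and 10.80 in WT and 10.85, 10.19 and 10.08 in Lig4mut. Replicate 1 lay within WT and the others below it, and the difference was -0.44 ± 0.27, but 0.33 averaged over its 4 probe sets.

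Ercc6, the Cockayne syndrome B protein that starts repair at stalled RNA polymerase, had 4.47, 4.81 and 4.99 in WT and 4.45, 3.72 and 4.09 in Lig4mut. The arrays did not overlap, although WT replicate 1 and Lig4mut replicate 1 were nearly equal, and the difference was -0.67 ± 0.25, 1.59-fold lower (limma, adjusted p = 0.236). Ercc6 was dim, with a WT mean of 4.76 where the median gene had 6.86, and the filter on dim genes left it out. Ercc8, the Cockayne syndrome A protein, ranged from 5.36 to 8.78 in Lig4mut and from 6.66 to 7.60 in WT, a difference of -0.41 ± 0.96 that was -1.45 without Lig4mut replicate 1. Ddb1 and Ddb2, the subunits of the sensor of ultraviolet damage, were at -0.06 ± 0.33 and -0.10 ± 0.69.

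Of the genes for unwinding and incision, 4 of 6 lay below 0, where 61.5% of all genes were above 0, and none passed. Of the 4, Ercc3 was at 0.027 with median centring and at 0.56 without Lig4mut replicate 3, and Ercc5 was at 0.037 without WT replicate 1. Ercc2, the XPD helicase of the factor TFIIH, had 6.85, 7.09 and 7.57 in WT and 8.00, 8.06 and 7.81 in Lig4mut. All Lig4mut arrays were above WT and close to each other, and the difference was 0.78 ± 0.22, 1.72-fold (limma, adjusted p = 0.173), and between 0.62 and 0.98 without any 1 array. Ercc3, the other helicase of TFIIH, was at -0.12 ± 0.68, with 7.61 to 7.93 in WT and 6.27 to 8.91 in Lig4mut, and at -0.76 without Lig4mut replicate 2. Xpa, which checks the lesion and positions the nucleases, had 7.78, 6.73 and 7.66 in WT and 7.55, 6.54 and 4.61 in Lig4mut. Lig4mut replicate 3 set most of its difference of -1.16 ± 0.82, which was -0.35 without that array.

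Ercc4 and Ercc1 encode the subunits of the nuclease that cuts on the 5′ side of a lesion. Ercc4 had 8.14, 8.61 and 6.32 in WT and 5.03, 8.44 and 5.53 in Lig4mut, which overlap widely, and its difference was -1.36 ± 1.12. Ercc1 stood at 8.50, 9.27 and 9.72 in WT and at 9.02, 11.35 and 9.02 in Lig4mut, a difference of 0.63 ± 0.75 that was -0.14 without Lig4mut replicate 2. Ercc5, the nuclease of the 3′ side, was at -0.40 ± 0.43. Lig4mut replicate 2 was the highest Lig4mut array for Parp2, Lig1, Polb, Mutyh, Smug1, Mlh3, Ddb1, Ercc1, Ercc2, Ercc3 and Ercc4. It was the lowest Lig4mut array for Xrcc1, Ung, Msh3, Msh6, Pms1, Pms2, Xpc, Ercc6, Ercc8 and Ercc5. Granulocyte transcripts were highest on Lig4mut replicate 2, with a mean log2 level over 10 markers of 10.81. That mean was 6.33 and 6.94 in Lig4mut replicates 1 and 3 and 7.85 to 8.88 in WT. The part of granulocyte transcripts in the members' values was not tested. Without Lig4mut replicate 2 Ercc4 was at -2.41 and Mlh3 at -1.52. Other omissions moved them the other way: Ercc4 was at -0.71 without Lig4mut replicate 1 and at -0.70 averaged over its probe sets, and Mlh3 was at -0.62 without Lig4mut replicate 3.

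**Figure D2:**
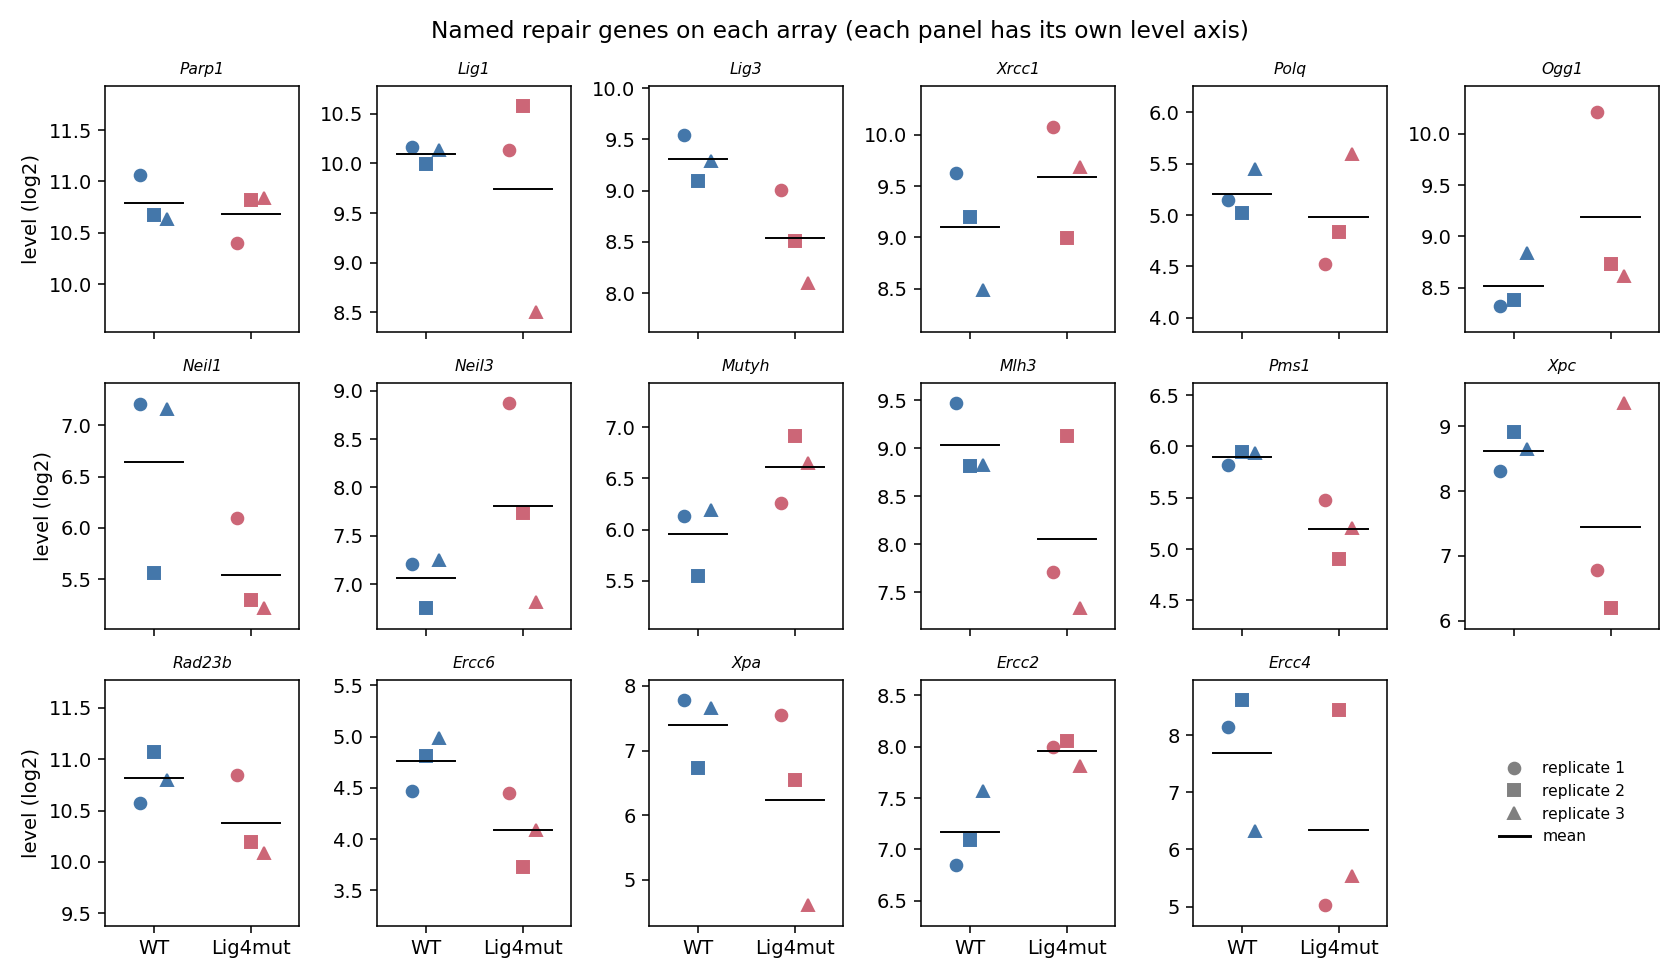
Log2 level (y axis, separate for each gene) of 17 repair genes on each of the 3 WT arrays (blue) and 3 Lig4mut arrays (red), with symbols for replicates 1, 2 and 3 and a line for the mean. The genotypes do not overlap for Lig3, Mutyh, Pms1, Ercc6 and Ercc2, whereas for Xpc, Xpa, Ercc4 and Lig1 a single array lies far from the other Lig4mut arrays.

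The Lig4mut arrays differed among themselves for many members. The 3 Lig4mut arrays spanned more than 2 log2 units, a limit set after the values were seen, for 12 of the 34 genes, 35.3%, and the WT arrays did so for 2 genes, Smug1 and Ercc4, 5.88%. Over all genes these shares were 18.1% and 4.68%. The 12 were Lig1, Neil3, Smug1, Msh3, Pms2, Xpc, Ddb2, Ercc8, Xpa, Ercc1, Ercc3 and Ercc4. The array farthest from the WT mean was Lig4mut replicate 1 for 11 of the 34 members, replicate 2 for 11 and replicate 3 for 12, and over all genes these shares were 29.1%, 37.2% and 33.6%. A member's SD had a median of 0.36 in WT and of 0.53 in Lig4mut, and that of all genes was 0.28 and 0.45.

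For 18 members there were several probe sets, and these did not always point the same way. They lay on both sides of 0 for 7 genes, 38.9%, where the share of all genes with several probe sets was 52.1%. The range between the probe sets of a gene had a median of 1.02 log2 units for these members and 0.76 for all such genes. Ercc2 was the only member gene whose probe sets all separated the genotypes, and the share of all genes that do so was not computed. Its second probe set had 5.50, 5.52 and 5.40 in WT and 5.80, 5.84 and 6.16 in Lig4mut, a difference of 0.46 ± 0.14 (limma over 34945 probe sets, adjusted p = 0.212). All genes in the class of WT level around 5.56, near that of this probe set (5.47), had a median difference of 0.48. The class around 7.08, near the first probe set of Ercc2 (7.17), had 0.36. Ercc1 had 4 of 4 probe sets above 0, from 0.012 to 1.01, and Neil3 2 of 2. Xpa, Ercc4 and Ercc5 had all of theirs below 0.

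For Parp1 all 4 probe sets were below 0, but 1 stood apart. It had 10.27, 9.80 and 9.92 in WT and 9.38, 8.55 and 9.03 in Lig4mut, with no overlap and a difference of -1.01 ± 0.27 (limma, adjusted p = 0.183). The other 3 lay between -0.33 and -0.10. Ddb2 had 1 of 2 probe sets at -1.14 ± 0.37 with no overlap and the other at -0.10, and Mbd4 had 1 of 3 at -1.96 ± 0.72 with the others at -0.38 and 0.12. Rad23b spanned the widest range, from -0.44 to 2.23, followed by Msh3, from -1.83 to 0.76. Of all 73 member probe sets, none passed the adjusted threshold, 1 of 34945 doing so in the series (0.00286%), and 8 lay at an unadjusted p under 0.05, 11.0% against 17.5% of all probe sets, 2 higher (12.2% of all) and 6 lower (5.3% of all). For 13 member probe sets, 17.8%, the genotypes did not overlap, against 23.8% of all. The 8 were 4 without WT replicate 2 or WT replicate 3, 5 without WT replicate 1 and 16 without Lig4mut replicate 1, where the shares of all probe sets were 11.8%, 13.4%, 12.6% and 20.3%.

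**Figure D3:**
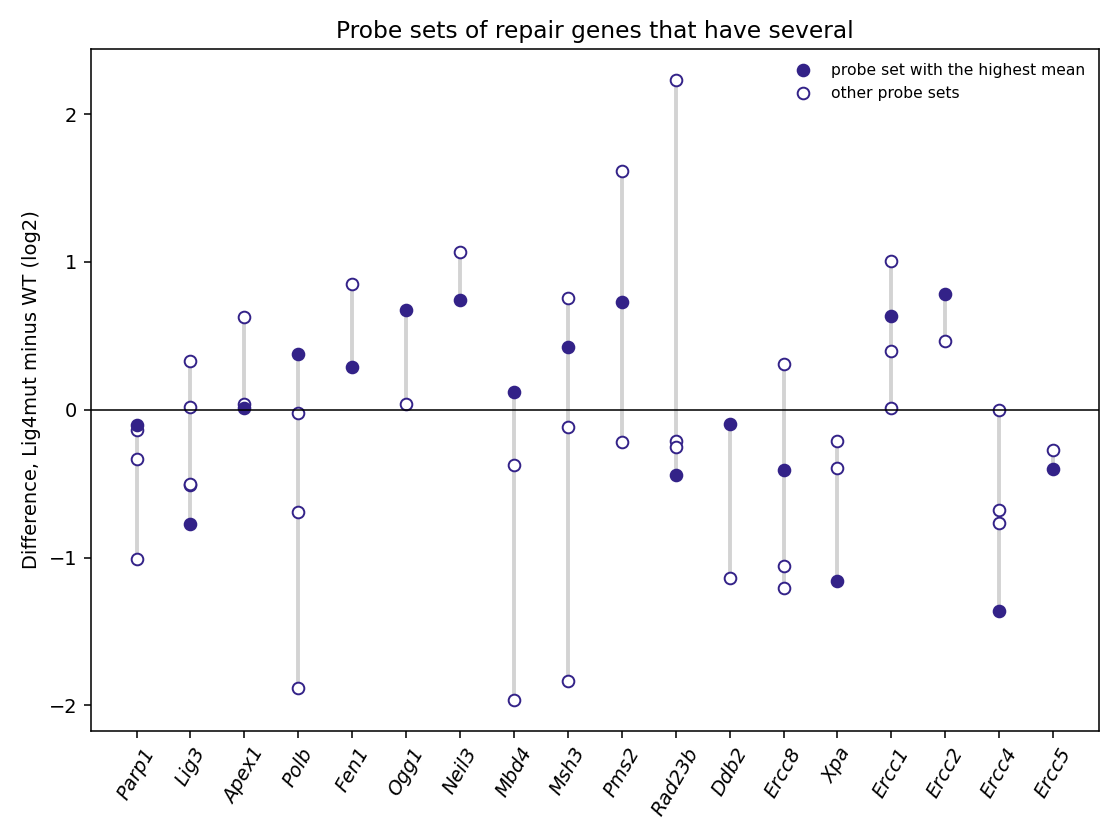
Difference between genotypes (Lig4mut minus WT, log2, y axis) of every probe set of the 18 repair genes that have several, with the probe set used for the gene filled and the others open. The probe sets of Rad23b, Msh3, Polb and Mbd4 reach over more than 2 log2 units, while those of Ercc5, Ercc2 and Neil3 lie close together.

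As a group the members lay somewhat below the other genes, with a median difference of -0.08 where all genes had 0.18, and 16 of 34 were above 0 against 61.5% of all genes. There were 13 members above the median of all genes, which 50% of genes exceed by construction. The difference between these medians, -0.26, was -0.08 in the values as deposited and with median centring, -0.06 with cyclic loess and 0.03 with dim genes left out, and -0.14 without WT replicate 1 and -0.16 without Lig4mut replicate 1. The median of all genes itself was 0.02 in the values as deposited, 0.33 with median centring and 0.10 with cyclic loess. Differences moved with brightness across the array. Among the 9096 genes whose WT mean exceeded that of the median gene the median difference was -0.09, close to that of the members, and among the others 0.37.

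**Figure D4:**
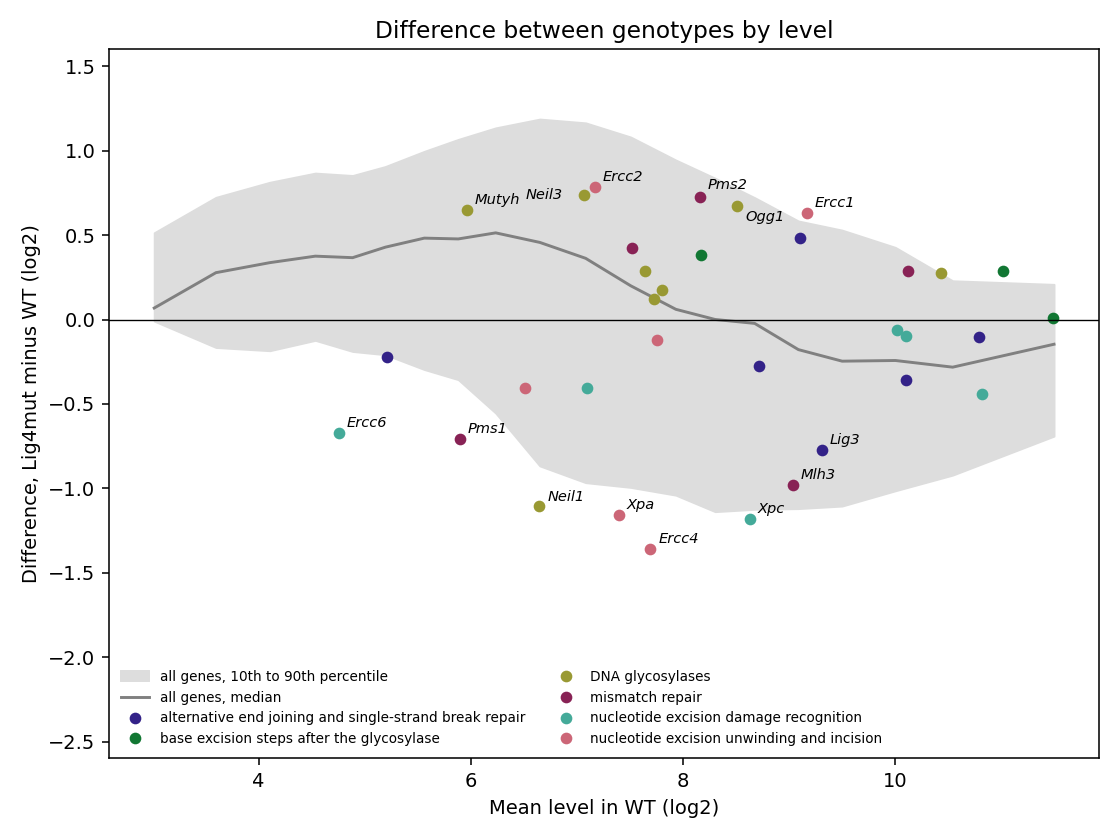
Difference between genotypes (log2, y axis) against the mean WT level (log2, x axis) of the 34 repair genes, coloured by role, over the median (grey line) and the 10th to 90th percentile (grey area) of all 18193 genes in 20 classes of level. Of the members, 24 lie inside the grey area, 7 below it (Polq, Neil1, Pms1, Xpc, Ercc6, Xpa and Ercc4) and 3 above it (Fen1, Ung and Ercc1); levels of different genes are not comparable on this axis.

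Of 36 other measured genes of these pathways, such as TFIIH subunits, clamp loaders and end-cleaning enzymes, none passed the threshold either. Differences were above 0 for 20 of them, 55.6% against 61.5% of all genes, with a median of 0.08 against 0.18. At an unadjusted p under 0.05 there were 4, or 11.1% against 19.7% of all genes, 1 higher (15.6% of all genes) and 3 lower (4.18% of all genes). That count was 2 without WT replicate 1 (13.3% of all genes) or WT replicate 2 (12.7%), and 7, 7 and 8 without Lig4mut replicates 1, 2 and 3 (22.5%, 19.3% and 19.1%). Parp3, a relative of Parp1 linked to break repair, had 9.60, 8.99 and 8.66 in WT and 5.40, 6.54 and 6.68 in Lig4mut. The Lig4mut arrays were far below WT, and the difference was -2.87 ± 0.44 (limma, adjusted p = 0.124), and -1.33 averaged over its probe sets. Mnat1, a subunit of the kinase module of TFIIH, had 7.75, 8.20 and 8.29 in WT and 6.93, 6.64 and 6.32 in Lig4mut, a difference of -1.45 ± 0.24 (limma, adjusted p = 0.13).

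Cul4a, the scaffold of the ubiquitin ligase that carries Ddb1, was at -0.51 ± 0.20, and Rpa2, a subunit of the single-strand binding protein, at -0.92 ± 0.42. On the higher side Rfc4, a clamp loader subunit, was at 0.66 ± 0.19, with 8.89 to 9.32 in WT and 9.55 to 9.93 in Lig4mut. Rfc2, of the same complex, was at 0.49 ± 0.23, Rpa3 at 0.27 ± 0.12 and Tdp1, which frees ends from trapped topoisomerase, at 1.01 ± 0.43.

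Other transcripts also varied between the arrays. Immediate early genes, which respond to handling, had a mean level over 11 genes of 10.04 to 11.20 in WT and 9.49 to 10.52 in Lig4mut. Mean levels were higher on all Lig4mut arrays for 7 B cell genes (6.87 to 7.65 against 6.51 to 6.65) and for 10 macrophage and dendritic cell genes (7.42 to 7.95 against 6.35 to 6.95), and none of these genes passed the adjusted threshold. The mean of all genes was also higher there, 7.11 to 7.13 against 6.99 to 7.01. The median differences of these 2 lists were 0.74 and 0.79. For all genes in the classes of WT level from 5.19 to 6.65 the median differences were 0.43 to 0.51. These classes do not cover the lists, whose WT means ran from 5.46 to 8.81 (B cell) and from 3.93 to 11.21 (macrophage and dendritic cell). The median differences of all genes were 0.28 to 0.38 in the classes from 3.60 to 4.89. In those from 7.08 to 11.49 they were -0.28 to 0.36. Xist exceeded the Y-linked genes on WT replicate 3 and Lig4mut replicate 2 and not on the other 4 arrays, so that each genotype held 1 array of that pattern. The part of these patterns in the members' values was not tested beyond the alternatives given here.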

How the data were processed

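Expression was measured on 1-colour Affymetrix arrays in 3 WT and 3 Lig4mut HSC samples. The authors deposited log2 values per probe set, made with RMA per the submitters' processing notes. Each array has a floor at 3, whose origin the sources do not give. Array medians were 6.29 to 6.34 in WT and 5.97 to 6.05 in Lig4mut, so values without the 64 control probe sets were quantile normalized across arrays. Levels in the text are these values. Precision is limited by the number of arrays. Gene names came from the platform annotation in GEO, with symbols updated to NCBI's table for GRCm38.p6. Probe sets naming 1 gene (34945) were kept, and a gene was taken at the probe set with the highest mean. Differences are Lig4mut minus WT, with limma 3.58.1 in R 4.3.3 (lmFit, eBayes, two-sided) and no filter. The method was tested on simulated data with the spread of these arrays. There the adjusted threshold called 8.4% of changes of 1 log2 unit, 37.8% of changes of 2 and 68.4% of changes of 4. P-values set the difference between genotypes against the spread of these samples within a genotype, moderated over all genes.

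The members and gene lists were chosen with earlier results of these data known. Array-by-array values are given for the 14 members with the smallest unadjusted p and for Parp1, Lig1, Lig3, Xrcc1 and Polq, and of the other repair genes up to 4 in each direction with the smallest p are named. Some further members are also given by array because 1 array set their value, chosen after the values were seen. Alternatives tried were a block for replicate number, omission of each array in turn, other scalings, a filter on dim genes, other choices of probe set, array weights, robust moderation with a variance trend, the sex-linked pattern as a covariate and another threshold.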

Additional observations from a re-analysis of the deposited data

How the results depend on the processing

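The absence of a call among the 34 members held under all 18 alternatives, including an adjusted threshold of 0.1. The number of members at an unadjusted p under 0.05 was 4 here, where the share of all genes was 19.7%. It was 2 with median centring (21.1% of all genes) and with a variance trend and robust moderation (17.8%). It was 1 with dim genes left out (13.3%), which dropped 4 members (Neil1, Polq, Pms1 and Ercc6). When every probe set was tested it was 8 of 73, against 17.5% of all probe sets. It was 2 to 7 over arrays left out (12.7% to 22.5% of all genes). The count of member probe sets, 8, was 4 to 16 over arrays left out (11.8% to 20.3% of all probe sets). The count of other repair genes, 4, was 9 with median centring, 2 with dim genes left out and 2 with the variance trend. It was 2 to 8 over arrays left out, and the shares of all genes were those just given. The median of the members relative to all genes was -0.322 to -0.143 over arrays left out, -0.0785 in the values as deposited, -0.0785 with median centring, -0.0617 with cyclic loess and 0.0337 with dim genes left out. Among the genes named by the rule, Rad23b turned to 0.331 with the mean of probe sets, and Parp1 to 0.245 with median centring and 0.0192 with cyclic loess. Over arrays left out Parp1 ranged from -0.180 to 0.0379, Lig1 from -0.776 to 0.257 and Polq from -0.529 to 0.00761. Of all 34 members, 16 kept their sign in every alternative. The causes were not tested.

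Same-numbered arrays of the 2 genotypes showed no common variation across genes, with correlations of their deviations of 0.0357, 0.0103 and -0.0316. Differently numbered arrays gave -0.0512 to 0.0430. Because the deviations are taken over only 3 arrays per genotype, these correlations do not decide whether same-numbered arrays were paired. With the replicate number as a block 2 members and 7 other repair genes lay at an unadjusted p under 0.05. The share of all genes there was 15.8%. Of the member probe sets 5 lay at that level. The shares of all probe sets were 11.8% to 20.3% over the alternatives tried for probe sets, which include this block. No member passed the adjusted threshold with the block.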
